A study of Mus musculus with 8 samples.

Results

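Pim1, Pim2 and Pim3, which encode the PIM family of serine/threonine kinases, and Bcl3, which encodes a nuclear protein of the IkB family, are described here across mouse blood stem and progenitor cells. They are 4 of 18193 genes measured on 8 Affymetrix arrays, and they were chosen by measured values: Bcl3 and Pim2 had stood out in stem cells of leukemic against normal mice in an earlier reading of the same arrays, and Pim1 and Pim3 complete the kinase family. The difference between leukemic and normal stem cells is therefore given for these 4 genes as a description, without a test. Non-transformed CD45.1+ cells were sorted from chimeric mice. In the leukemic mice, CD45.1+ hosts had received equal numbers of CD45.1+ marrow cells and of CD45.2+ marrow cells carrying both BCR-ABL, the fusion kinase of chronic myeloid leukemia, and SCL-tTA, a driver active in stem and progenitor cells that turns BCR-ABL on when tetracycline is withdrawn. Normal mice were chimeras of the same design whose donor marrow lacked BCR-ABL. Cells were taken 4 weeks after withdrawal. Each of the 4 groups, HSC normal, HSC leukemic, KSL normal and KSL leukemic, has 2 arrays. HSC stands for CD150+ CD48- KSL cells, the gate for long-term stem cells, and KSL for the whole gate of lineage-negative, Sca-1+ Kit+ progenitors that contains them. Host and donor cells both carry CD45.1, so the sorted cells can come from either, and the labels give neither the age of the mice nor the number of animals behind an array.

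PIM kinases are active as soon as they are made, so their activity follows the amount of their messenger RNA and protein more than any activating phosphorylation. Cytokine receptors induce their genes through JAK kinases and the transcription factors STAT3 and STAT5, and the kinases promote survival and growth of blood cells by phosphorylating proteins such as BAD, the cell cycle inhibitors p21 and p27, and regulators of translation. BCL3 is an unusual IkB protein that works in the nucleus with the NF-kB subunits p50 and p52, and its gene is itself induced by NF-kB and by STAT3.

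The start regions of the genes with the largest stem cell differences, Bcl3 and Pim2, are shown because both factors named above act on DNA near the genes they induce. The windows are RefSeq promoters of build GRCm38.p6, which hold 250 bases before and 50 after a start site, read 5′ to 3′ on the gene's strand: chr7:19822706-19823005 on the minus strand for Bcl3 and chrX:7878056-7878355 on the plus strand for Pim2. Capitals mark a match to the kappaB motif of NF-kB.
Bcl3: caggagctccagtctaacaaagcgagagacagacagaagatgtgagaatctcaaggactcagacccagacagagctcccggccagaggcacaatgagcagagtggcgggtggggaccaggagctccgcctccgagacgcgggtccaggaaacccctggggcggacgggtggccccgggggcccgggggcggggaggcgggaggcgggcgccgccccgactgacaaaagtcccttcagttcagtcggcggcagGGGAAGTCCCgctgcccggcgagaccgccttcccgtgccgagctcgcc
Pim2: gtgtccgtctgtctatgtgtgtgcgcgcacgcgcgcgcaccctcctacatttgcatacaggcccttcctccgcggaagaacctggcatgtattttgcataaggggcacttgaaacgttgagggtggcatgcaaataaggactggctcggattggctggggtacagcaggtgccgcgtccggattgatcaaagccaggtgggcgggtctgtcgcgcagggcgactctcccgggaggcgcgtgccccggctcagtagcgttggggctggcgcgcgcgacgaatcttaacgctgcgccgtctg
Both strands were searched for the STAT motif TTCNNNGAA, for its longer form TTCNNNNGAA and for the kappaB motif. The Bcl3 window held 1 kappaB match and neither of the STAT motifs. The match started at base 3 from the start site of this window (chr7:19822744-19822753). The annotated Bcl3 gene begins upstream of that site, at chr7:19822824. The window of Pim2, that of Pim3 (on chromosome 15) and both windows of Pim1 (on chromosome 17) held no match to any of the 3 motifs. Of all 32851 windows of this length, 8.30% held the first, 6.95% the second and 4.51% the kappaB motif. These matches describe letters in a window of 300.0 bases and say nothing about binding.

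The arrays could be read for all 4 genes. Of the 7 probe sets that name 1 of them alone, 0 had an array at 10, the lowest linear value of the deposited table (3.32 in log2). Values are deposited log2 signals, so a difference of 1 is a doubling of signal. Levels are compared only within a probe set. Replicate arrays correlated across genes with r between 0.958 and 0.994, and the KSL pairs lay closer together than the HSC pairs. The sort gates were reflected in their genes: Slamf1 (CD150) was at 8.23 to 9.36 on the HSC arrays and 5.27 to 7.06 on the KSL arrays, and Cd48 at 6.19 to 8.12 against 10.17 to 10.44. Within HSC, 3 of 9 gate markers were wholly lower in leukemic mice and 0 higher. The share of all genes wholly lower was not counted, and 16.0% were wholly higher. Slamf1 was at 8.90 and 9.36 in HSC normal and 8.47 and 8.23 in HSC leukemic, Procr (EPCR) at 10.18 and 9.73 against 8.63 and 8.78, and Hlf, a stem cell transcription factor gene, at 10.77 and 10.41 against 10.25 and 9.48. The part of this shift in the values of the 4 genes was not tested. Ly6a (Sca-1) has no probe set of its own and was not analysed here. Replicate 1 of HSC normal and of KSL normal had a male pattern of Xist and Eif2s3y, and values without them are given where they change a statement. Pim2 is X-linked. It was at 7.998 on the HSC normal array with the male pattern and at 8.01 on the other. In KSL normal it was at 7.13 and 7.41.

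**Figure D1:**
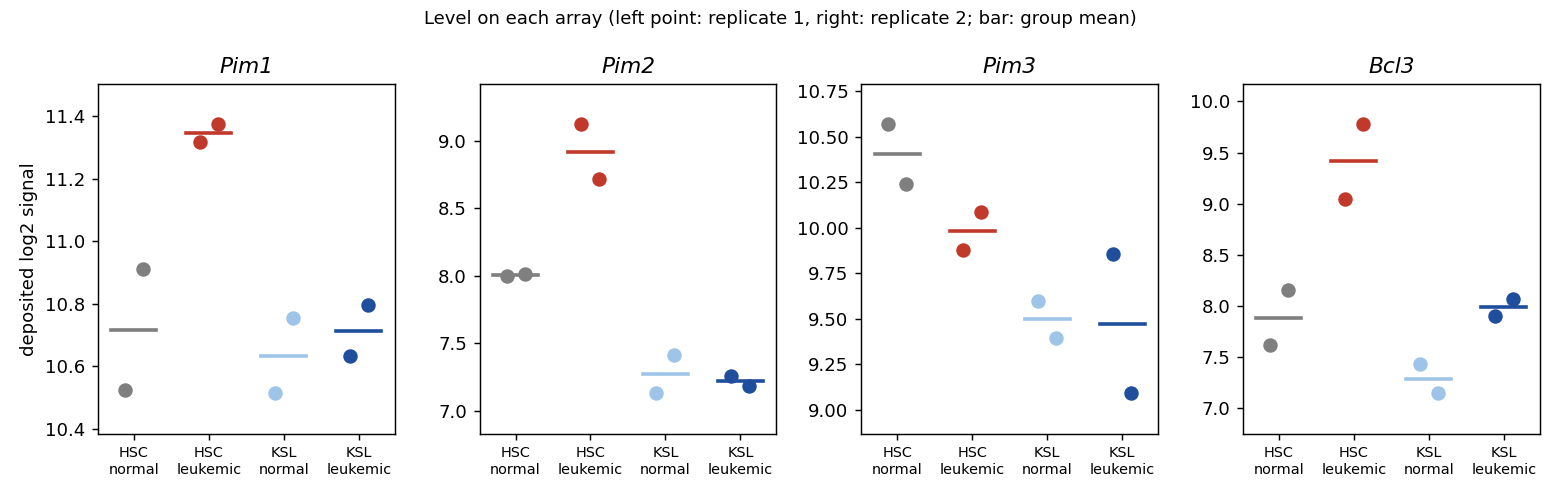
Deposited log2 signal of Pim1, Pim2, Pim3 and Bcl3 (1 panel each, each with its own vertical scale) on the 8 arrays, grouped as HSC normal, HSC leukemic, KSL normal and KSL leukemic; points are arrays and bars group means of 2 arrays. On the brightest probe set of each gene, shown here, both HSC leukemic arrays of Pim1, Pim2 and Bcl3 lie above the other 6. The highest Pim3 arrays are those of HSC normal.

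In HSC, Bcl3, Pim2 and Pim1 were higher in leukemic than in normal mice, and Pim3 was not. Bcl3 read 7.62 and 8.15 in HSC of normal mice and 9.05 and 9.78 in HSC of leukemic mice. The leukemic arrays lay above both normal arrays, and the mean difference was 1.53 ± 0.32 log2 units (standard error of the limma fit, n = 2 arrays per group), or 2.88-fold. The difference lay between 1.16 and 1.89 when each array was left out in turn. Pim2 read 7.998 and 8.01 in normal and 9.13 and 8.72 in leukemic mice. Its difference was 0.92 ± 0.17, or 1.89-fold, and the normal arrays were nearly equal. Pim1, the founding member of the kinase family, read 10.52 and 10.91 in normal and 11.32 and 11.37 in leukemic mice. Its difference was 0.63 ± 0.16, or 1.55-fold, and was 0.44 when the HSC normal array with the male pattern was left out.

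Pim3 went the other way on its brightest probe set. It read 10.57 and 10.24 in HSC of normal mice and 9.88 and 10.09 in HSC of leukemic mice, a difference of -0.42 ± 0.29, and both leukemic arrays lay below both normal ones. On the brightest probe sets, 3 of the 4 genes thus had HSC leukemic arrays wholly above the HSC normal arrays. The same 3 had them above all other 6 arrays. Over all genes, 16.0% met the first condition and 7.60% the second. These shares are given as background only, because the genes were chosen on this contrast. Since these are bulk samples, a change in RNA per cell and a change in the mix of cells within the gate cannot be told apart.

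In KSL the leukemic marrow went with a smaller shift in Bcl3 and little shift in the PIM genes on their brightest probe sets. Of the 4 genes 0 passed limma's test adjusted over all genes. Of all genes 0.0440% passed in this comparison. Bcl3 read 7.44 and 7.15 in KSL of normal mice and 7.90 and 8.07 in KSL of leukemic mice. The arrays did not overlap, as also held for 20.5% of all genes in this direction. The difference was 0.69 ± 0.32 (95% interval -0.14 to 1.53, limma adjusted p = 0.734, unadjusted p = 0.0834), and the interval includes both 0 and a doubling. It was 0.84 without the KSL normal array with the male pattern. The fit shares 1 spread among the 4 groups. The replicate standard deviation of Bcl3 was 0.38 and 0.52 in HSC normal and leukemic, against 0.20 and 0.12 in KSL. With array weights the standard error of the KSL difference was 0.18 (limma adjusted p = 0.175), and that of the HSC difference was 0.36.

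Pim2 read 7.13 and 7.41 in KSL of normal mice and 7.25 and 7.18 in KSL of leukemic mice, so the leukemic arrays lay between the normal ones. Its difference was -0.05 ± 0.17, with a 95% interval of -0.49 to 0.39 (limma adjusted p = 1). Pim1 read 10.51 and 10.75 in normal and 10.63 and 10.79 in leukemic mice, with overlapping groups and a difference of 0.08 ± 0.16 (interval -0.34 to 0.50, limma adjusted p = 1). Pim3 read 9.60 and 9.40 against 9.86 and 9.09, the widest replicate pair of the 4 genes, and its difference of -0.02 ± 0.29 had an interval of -0.79 to 0.74 (limma adjusted p = 1). For the 3 kinase genes the sign of the KSL difference turned under other settings, for Pim2 and Pim3 also when each array was shifted to a common median. The intervals leave room for differences of up to 0.50, 0.49 and 0.79 in size for Pim1, Pim2 and Pim3, respectively.

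**Figure D2:**
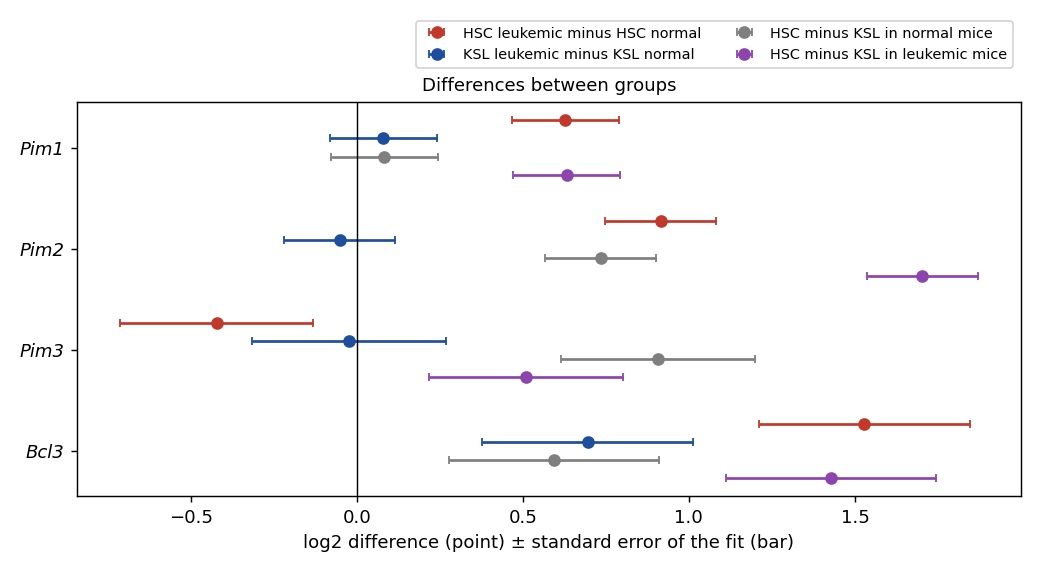
Log2 differences of the 4 genes in 4 comparisons, with the leukemic minus normal difference in HSC (red) and KSL (blue) and the HSC minus KSL difference in normal (grey) and leukemic mice (purple); bars are standard errors of the limma fit, with 2 arrays per group. Pim2 and Bcl3 have the largest HSC minus KSL differences in leukemic mice, 1.70 and 1.43. On the brightest probe sets, shown here, the kinase genes lie near 0 in KSL.

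Within normal mice, Pim2, Pim3 and Bcl3 read higher in HSC than in KSL. Both HSC arrays were above both KSL arrays for these 3 of the 4 genes, as for 24.2% of all genes, and none of the 4 passed limma's adjusted test, which 1.80% of all genes passed. At an unadjusted p under 0.05 there were 2 of 4, Pim2 and Pim3, against 16.2% of all genes. Pim2 had means of 8.01 in HSC and 7.27 in KSL, a difference of 0.74 ± 0.17 (95% interval 0.30 to 1.17, limma adjusted p = 0.135). Pim3 had means of 10.40 and 9.50, a difference of 0.91 ± 0.29 (0.14 to 1.67, limma adjusted p = 0.239). Bcl3 differed by 0.59 ± 0.32 (-0.24 to 1.43, limma adjusted p = 0.464) and Pim1 by 0.08 ± 0.16 (-0.34 to 0.51, limma adjusted p = 0.916), with overlapping arrays for Pim1. The HSC normal arrays are shared with the contrast on which the genes were chosen.

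In leukemic mice the HSC arrays were above the KSL arrays for all 4 genes on their brightest probe sets. Of all genes 28.2% showed this pattern. This comparison contains the HSC leukemic arrays on which the genes were chosen, and it is described without a test. Pim2 had means of 8.92 in HSC and 7.22 in KSL, a difference of 1.70 ± 0.17, or 3.25-fold. Bcl3 had means of 9.41 and 7.99, a difference of 1.43 ± 0.32, or 2.69-fold. Pim1 differed by 0.63 ± 0.16 and Pim3 by 0.51 ± 0.29. The Pim3 value rested on KSL leukemic replicates 1 and 2, at 9.86 and 9.09. It was 0.89 without the first and 0.13 without the second.

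The order of the 4 group means was therefore not the same for the 4 genes. For Pim2 it ran HSC leukemic, HSC normal, KSL normal, KSL leukemic, and the last 2 did not differ beyond their spread. For Bcl3 it ran HSC leukemic, KSL leukemic, HSC normal, KSL normal. The middle pair of Bcl3 overlapped, with 7.90 and 8.07 in KSL leukemic against 7.62 and 8.15 in HSC normal. Without the array of male pattern this pair changed places, with HSC normal at 8.15 and a KSL leukemic mean of 7.99. On the brightest Pim1 probe set only HSC leukemic stood apart, and the other groups had means of 10.72, 10.71 and 10.63. For Pim3 it ran HSC normal, HSC leukemic, KSL normal, KSL leukemic, with overlap between the KSL groups. Without the array of male pattern KSL normal of Pim3 was at 9.40, below the KSL leukemic mean of 9.47.

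The leukemic minus normal difference was larger in HSC than in KSL by 0.97 ± 0.24 for Pim2, 0.83 ± 0.45 for Bcl3 and 0.55 ± 0.23 for Pim1, and for Pim3 the HSC difference was lower by -0.40 ± 0.41. These differences of differences contain the contrast of choice and carry no test. Single arrays set 3 of them. The Bcl3 value was 0.47 without HSC leukemic replicate 2 and 0.42 without both arrays of male pattern, and the Pim1 value was 0.36 without HSC normal replicate 1. The Pim3 value lay between -0.78 and -0.014 depending on which KSL leukemic array was left out.

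Bcl3 and Pim2 each have a single probe set with their symbol alone, Pim1 has 2 and Pim3 has 3. The second probe set of Pim1 read 5.95 and 6.18 in HSC normal and 6.60 and 6.99 in HSC leukemic, a difference of 0.73 ± 0.23 in the same direction as the first. In KSL it differed by 0.38 ± 0.23 (limma adjusted p = 0.999 over all probe sets), against 0.08 for the brighter one. In leukemic mice the second probe set gave an HSC minus KSL difference of 0.17 ± 0.23, against 0.63 for the brighter one. Its KSL leukemic arrays, at 6.49 and 6.76, overlapped those of HSC leukemic. For Pim3 the probe sets disagreed. In HSC, leukemic minus normal, the brightest gave -0.42 ± 0.29, the second 0.15 ± 0.32 and the dimmest 0.06 ± 0.25. The same difference in KSL was -0.02 ± 0.29, 0.50 ± 0.32 and 0.04 ± 0.25, in the same order. In normal mice the HSC minus KSL difference of Pim3 was 0.91 on the brightest and 0.18 and 0.01 on the others. In leukemic mice this difference was 0.51, -0.17 and 0.04, in the same order. The brightest and the dimmest Pim3 probe sets carry the suffix x_at, by which Affymetrix marks sets whose probes also match other sequences, so the Pim3 values describe probe sets that do not give 1 answer for the gene.

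**Figure D3:**
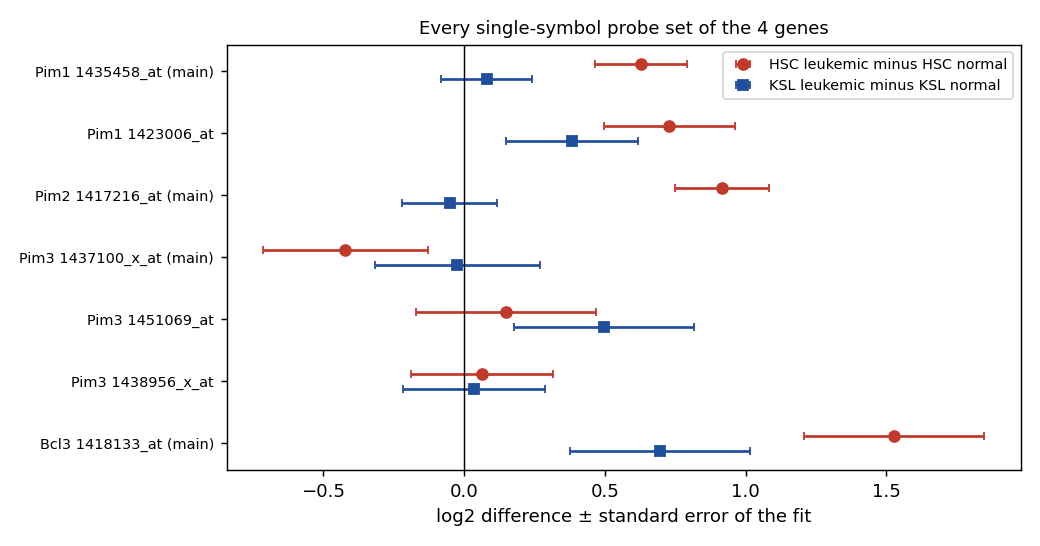
Leukemic minus normal log2 difference in HSC (red circles) and KSL (blue squares) on each of the 7 probe sets of the 4 genes; bars are standard errors of the limma fit over all probe sets, with 2 arrays per group. Both Pim1 probe sets are above 0 in HSC, and the 3 Pim3 probe sets lie on both sides of 0.

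Marker genes of blood cell lineages, not all of them limited to mature cells, were read on the same arrays, since PIM genes and Bcl3 are expressed in many blood cells. Of 15 neutrophil and monocyte markers, 11 had both HSC leukemic arrays above both HSC normal arrays, as did 16.0% of all genes. Their summed linear signal was 14308 and 4557 in HSC normal and 25947 and 23218 in HSC leukemic. It was higher still in KSL, at 36383 to 38326 in normal and 43874 to 49368 in leukemic mice. Of 6 mast cell and basophil markers, 4 were above in HSC leukemic. Summed levels there were 152 and 149 in HSC normal, 197 and 499 in HSC leukemic and at least 1462 in KSL. Among 8 B lineage markers 4 were above and 1 below, with Ms4a1 at the lowest value on every array and sums of 448 and 957 in HSC normal against 823 and 1081 in HSC leukemic. Among 8 T and NK markers 3 were above, with Gzma and Ncr1 at the lowest value on every array and sums of 686 and 945 against 1038 and 1105. Of 7 megakaryocyte markers 2 were above, with sums of 5088 and 9904 against 9688 and 10877, and of 6 erythroid markers 0 were above and 1 was below. The sums of the B lineage, megakaryocyte and erythroid lists overlapped between the HSC groups. In KSL, 8 of the 15 neutrophil and monocyte markers had both leukemic arrays above both normal ones, as did 20.5% of all genes. So did 6 of the 6 mast cell and basophil markers. Both KSL leukemic arrays were below both KSL normal ones for 5 of 7 megakaryocyte, 5 of 8 T and NK, 3 of 6 erythroid and 6 of 9 stem and progenitor gate markers. They were also below for 1 neutrophil and monocyte marker, and above for 1 erythroid marker. Of the 8 B lineage markers 0 were above and 1 was below. The share of all genes wholly lower in leukemic mice was not counted. The megakaryocyte sums were 2186 and 3752 in KSL normal and 1171 and 1475 in KSL leukemic. The part of these markers in the values of the 4 genes was not tested.

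Control probes for RNA quality also moved between the HSC groups for Gapdh and Tfrc, and little for Actb. The difference between the 3 prime and 5 prime probe sets of Gapdh was 0.78 and 0.83 in HSC normal and 1.19 and 1.03 in HSC leukemic, against 0.73 to 0.89 in KSL. For Tfrc it was -2.04 and -1.74 against -0.36 and -0.75. Actb moved the other way, from -0.37 and -0.38 in HSC normal to -0.42 and -0.50 in HSC leukemic. The part of RNA quality in the values of Bcl3, Pim1 and Pim2 was not tested.

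Around the 4 genes, cytokine receptors, JAK kinases, STAT factors and STAT target genes were read as a list of 33, of which 31 were measured. In HSC of leukemic against normal mice limma passed 0 of 31, with 11 at an unadjusted p under 0.05, and 17 were above 0 with a median of 0.04. Of all genes 0.0989% passed and 13.8% were at an unadjusted p under 0.05, with 54.2% above 0 and a median of 0.00. Socs3, the feedback inhibitor that STAT3 induces, had the smallest p of the list. It read 7.11 and 6.87 in HSC normal and 8.49 and 8.88 in HSC leukemic, a difference of 1.70 ± 0.16 (limma adjusted p = 0.0819). The next was Lifr, the receptor chain for leukemia inhibitory factor, at 1.15 ± 0.11 (limma adjusted p = 0.0866). Lifr lay at or near the lowest value of the table, with 3.32 and 3.50 in HSC normal, 4.44 and 4.67 in HSC leukemic and 3.79 to 4.06 in KSL, so no difference of Lifr given here is exact. Its other probe sets gave 0.65 ± 0.31 in HSC and, for the third, the lowest value on every array. The STAT genes themselves differed little in HSC: Stat3 by 0.28 ± 0.19, Stat5a by -0.09 ± 0.20 and Stat5b by 0.02 ± 0.10 (limma adjusted p = 0.597, 0.932 and 1).

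In KSL limma again passed 0 of the 31, with 3 at an unadjusted p under 0.05, as were 7.95% of all genes, and a median of -0.09. Socs3 read 6.27 and 6.17 in normal and 7.32 and 7.35 in leukemic mice, a difference of 1.12 ± 0.16 (limma adjusted p = 0.215). Stat5b differed by -0.37 ± 0.10 (limma adjusted p = 0.468), Stat5a by -0.40 ± 0.20 (0.781) and Stat3 by 0.07 ± 0.19 (1). The other probe sets of Socs3 disagreed with each other in HSC, at 1.62 ± 0.42 and 0.11 ± 0.37, and both were above 0 in KSL, at 0.97 and 1.58. The main Socs3 probe set and the one at 1.62 carry the suffix x_at, and the one at 0.11 does not. Between HSC and KSL of normal mice 0 of 31 passed, with 13 at an unadjusted p under 0.05 (16.2% of all genes), led by Csf2rb, a signalling chain common to several myeloid cytokine receptors, at -2.14 ± 0.35 (limma adjusted p = 0.0731), and by Lifr, whose HSC normal arrays were at and just above the lowest value (-0.64 ± 0.11, limma adjusted p = 0.0789, against -0.17 ± 0.31 on its second probe set). In leukemic mice 3 of 31 were higher in HSC than in KSL and 0 lower by limma's test, which 5.86% of all genes passed, and 17 were at an unadjusted p under 0.05 (23.0% of all genes). Jak3, the kinase of the common gamma chain receptors, was higher in HSC by 1.93 ± 0.24 (limma adjusted p = 0.0257), Socs3 by 1.35 ± 0.16 (0.0231) and Lifr, at its low level, by 0.69 ± 0.11 (0.0415). The other probe sets of Socs3 gave 1.21 ± 0.42 and, for the one without the suffix x_at, -0.15 ± 0.37. All 3 calls were lost without KSL leukemic replicate 1, KSL leukemic replicate 2 or either KSL normal array, and without both arrays of male pattern. Socs3 and Lifr were also lost with the mean of all probe sets of a gene, and Lifr without HSC normal replicate 1, HSC normal replicate 2 or HSC leukemic replicate 2. With only the 2 groups compared all 3 calls were lost as well, and that of Lifr also with a common median or array weights. Adjusted p reached 0.134, 0.154 and 0.188 over the alternatives.

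Proteins that PIM kinases phosphorylate were read as a list of 22, all measured. Limma passed 0 in HSC of leukemic against normal mice, with 3 at an unadjusted p under 0.05 and a median of 0.07. Those 3 of 22 are near the share over all genes, 13.8%. Cdkn1b, which encodes the cell cycle inhibitor p27, read 9.23 and 9.38 in HSC normal and 9.64 and 9.85 in HSC leukemic, a difference of 0.44 ± 0.10 (limma adjusted p = 0.211). In KSL it was lower in leukemic mice, at 9.95 and 9.99 against 9.21 and 9.39, a difference of -0.67 ± 0.10 (limma adjusted p = 0.225), while 0 of 22 genes passed and 3 were at an unadjusted p under 0.05 (7.95% of all genes). The next was Numa1, a mitotic spindle gene, at -0.55 ± 0.15 (limma adjusted p = 0.502). The HSC difference minus the KSL difference was 1.11 ± 0.15 for Cdkn1b (limma adjusted p = 0.211), a comparison in which 0.00550% of all genes passed. The dimmer Cdkn1b probe set gave 0.01 in HSC and -0.46 in KSL. Cdkn1a, which encodes p21, differed by 0.69 ± 0.18 in HSC (limma adjusted p = 0.229). Myc differed by -0.08 ± 0.18 in HSC and -0.16 ± 0.18 in KSL (limma adjusted p = 0.943 and 1). Between HSC and KSL 0 of 22 passed in normal mice and 0 in leukemic mice. At an unadjusted p under 0.05 there were 4 in each, against 16.2% and 23.0% of all genes. Abcg2, the drug efflux pump of stem cells, had an HSC minus KSL difference of 1.86 ± 0.29 in normal and 1.009 ± 0.29 in leukemic mice (limma adjusted p = 0.0666 and 0.130). That of Cdkn1b was -0.66 ± 0.10 in normal and 0.44 ± 0.10 in leukemic mice (limma adjusted p = 0.0677 and 0.0911), with opposite signs.

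NF-kB subunits, IkB proteins and partners of BCL3 were read as a list of 24, of which 22 were measured. Nfkb1 and Chuk have no probe set with their symbol alone here. In HSC of leukemic against normal mice limma passed 0 of 22, with 4 at an unadjusted p under 0.05 (13.8% of all genes) and a median of -0.06. Ccnd1, the cyclin D1 gene that BCL3 with p52 can activate, read 8.29 and 8.44 in HSC normal and 8.96 and 8.90 in HSC leukemic, a difference of 0.57 ± 0.07 (limma adjusted p = 0.0944). Kat5, an acetyltransferase gene whose product binds BCL3, was lower by -1.01 ± 0.14 (limma adjusted p = 0.126). Nfkb2, the gene of the p52 precursor, differed by 0.40 ± 0.23 (limma adjusted p = 0.546), and its other probe set by -0.43 ± 0.12.

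In KSL limma passed 0 of the 22, with 4 at an unadjusted p under 0.05 (7.95% of all genes) and a median of -0.15. Nfkbid, another nuclear IkB gene, read 8.57 and 8.43 in normal and 7.34 and 7.24 in leukemic mice, a difference of -1.21 ± 0.14 (limma adjusted p = 0.215) and thus opposite in sign to that of Bcl3 in the same cells. Nfkbie, the IkB epsilon gene, differed by -0.64 ± 0.17 (limma adjusted p = 0.463). Nfkb2 differed by -0.40 ± 0.23 in KSL (limma adjusted p = 0.865). Between HSC and KSL of normal mice 0 of 22 passed, with 5 at an unadjusted p under 0.05 (16.2% of all genes), led by Kat5 at 0.98 ± 0.14 and Ccnd1 at 0.30 ± 0.07 (limma adjusted p = 0.0608 and 0.127). In leukemic mice 2 of 22 were higher and 1 lower in HSC than in KSL by limma's test, which 5.86% of all genes passed, and 7 were at an unadjusted p under 0.05 (23.0% of all genes). Ccnd1 was higher in HSC by 1.08 ± 0.07 (limma adjusted p = 0.00839) and Nfkbid by 0.90 ± 0.14 (0.0415). Cops5, a COP9 signalosome gene, was lower in HSC, with a difference of -0.48 ± 0.08 (0.0495). The Ccnd1 call was lost without KSL leukemic replicate 1 or KSL leukemic replicate 2, without both arrays of male pattern, and with the mean of all its probe sets (adjusted p up to 0.243). With only the 2 groups compared the Ccnd1 call was lost too. Nfkbid kept its call in 7 and Cops5 in 1 of 19 alternatives. Leaving out any 1 of the HSC leukemic, KSL normal or KSL leukemic arrays ended both calls, and leaving out HSC normal replicate 1 or HSC normal replicate 2 ended that of Cops5, with adjusted p up to 0.194 for Nfkbid and 0.311 for Cops5.

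For the difference of differences, HSC minus KSL, limma passed 0 genes of each list, with 4 of 31, 1 of 22 and 3 of 22 at an unadjusted p under 0.05 for the STAT, PIM substrate and NF-kB lists. Of all genes 9.09% were at such a p. The medians were 0.27, 0.16 and -0.0071, against 0 over all genes. Ccnd1 had 0.78 ± 0.09 (limma adjusted p = 0.176). Lifr, with HSC normal replicate 1 at the lowest value, had 1.33 ± 0.16 (limma adjusted p = 0.176), and its second probe set had 0.83 ± 0.44. Ptpn2, a phosphatase gene of the JAK-STAT pathway, had -0.88 ± 0.16 and Kat5 -1.05 ± 0.20 (limma adjusted p = 0.311 and 0.313). The other probe sets of Ptpn2 disagreed in sign, at -0.60 ± 0.36, 0.31 ± 0.52 and 0.42 ± 0.45. Foxo1, a forkhead factor gene, had 1.26 ± 0.60 (limma adjusted p = 0.632).

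**Figure D4:**
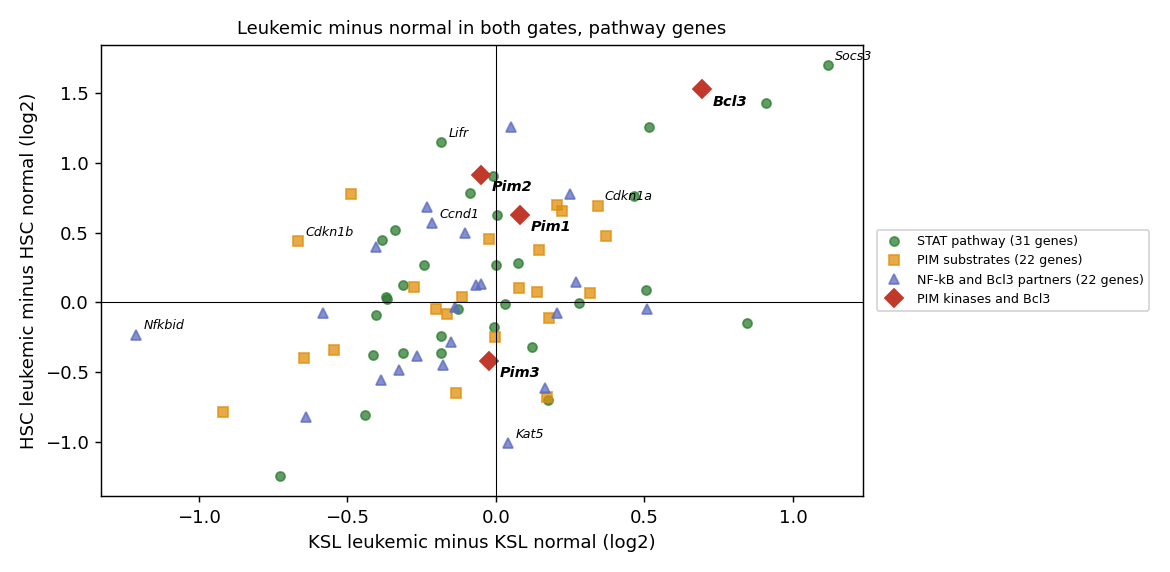
Leukemic minus normal log2 difference in HSC (vertical) against KSL (horizontal) for the 4 genes (red diamonds) and the measured members of 3 lists: 31 genes of the STAT pathway (circles), 22 PIM substrates (squares) and 22 NF-kB genes and BCL3 partners (triangles). Bcl3 and Socs3 lie at the upper right, with 1.53 in HSC and 0.69 in KSL against 1.70 and 1.12. On the probe sets shown, the brightest of each gene, Pim1 and Pim2 are above 0 in HSC and near 0 in KSL.

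The genes whose log2 values over the 8 arrays were most like each of the 4 were found among 7664 genes with no array at the lowest value and a range of at least 1 log2 unit. Pearson's r is given as a description over 8 arrays of 4 groups, with no test. For Bcl3 they were the telomere protein gene Pot1b (r = 0.978), Clu, which encodes the chaperone clusterin (0.964), and Socs3 (0.954). Clu read 7.67 and 8.74 in HSC normal, 9.01 and 11.01 in HSC leukemic, 7.46 and 7.32 in KSL normal and 8.16 and 8.22 in KSL leukemic, so that it shared with Bcl3 the high second HSC leukemic array. For Pim2 they were 4930571B16Rik (0.995), Abca4, a lipid transporter gene (0.985), and Cmtm4 (0.985). For Pim1 they were Tbrg3 (0.961), the mitochondrial import gene Timm10b (0.951) and the nuclear import gene Tnpo3 (0.947). For Pim3 they were the potassium-chloride cotransporter gene Slc12a7 (0.949), the troponin gene Tnni3 (0.947) and the mitochondrial kinase gene Pink1 (0.936), each highest on HSC normal replicate 1, as Pim3 was.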

How the data were processed

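Deposited values were used as the authors gave them: log2 signals of 45101 probe sets on 8 Affymetrix arrays, made with RMA per the submitters' processing notes, with array medians of 5.74 to 5.86 and 14.9% to 15.8% of probe sets at the lowest value. The design text and the labelling protocol name different amplification methods, which could affect low signals. A single gene symbol was given for 34945 probe sets, and the brightest of them on average represented each of 18193 genes. limma 3.58.1 in R 4.3.3 fitted the 4 groups together, with 4 residual degrees of freedom and Benjamini-Hochberg adjustment over all genes. The groups share 1 estimate of spread for each gene. The median replicate standard deviation was 0.20 and 0.21 in HSC normal and leukemic, against 0.11 and 0.09 in KSL. The shared estimate thus tends to understate the spread in HSC and to overstate it in KSL. The fit was tested on simulated data. Whether the 2 arrays of a group came from different animals is not stated in the labels. In both normal groups replicate 1 had the male pattern and replicate 2 did not, so those arrays came from different animals or pools. For the leukemic groups this is open. The p-values measure only the spread between these samples, which may be technical in the leukemic groups. With 2 arrays per group, precision is limited by their number.

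The members and the gene lists were chosen with earlier results of these data known. In each list the text names the genes that passed in a comparison (up to 4 in each direction) or else the 2 with the smallest p. For leukemic minus normal it also gives Stat3, Stat5a, Stat5b, Socs3, Nfkb2 and Myc. The rule also held Nfkb1, which was not measured alone. For each member, the 3 genes with the highest correlation are named. Correlations of deviations between arrays of matching replicate number lay between -0.0351 and 0.0873, so no strong pairing was seen. The highest was that of HSC normal and KSL normal, whose replicate 1 arrays both had the male pattern. Whether these share animals is not stated in the labels. Alternatives covered scaling, array weights, filters, probe set choice, a replicate block, the male pattern and each array left out.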

Additional observations from a re-analysis of the deposited data

How the results depend on the processing

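The 20 differences of the 4 genes were computed again under 19 alternatives (18 for the difference of differences), 8 of which left out 1 array. Of 376 values, 335 counted as unchanged, 25 moved beyond the replicate spread and 16 changed sign. Only 8 of the differences were tested, and of their 152 values 0 passed the threshold. Values of the tested differences counted as unchanged when the sign and the test result held, whatever the replicate spread. With the mean of all probe sets, the tested HSC minus KSL difference of Pim3 in normal mice fell by more than that spread. In HSC, leukemic minus normal, Bcl3, Pim1 and Pim2 kept their sign in all 19. With arrays shifted to a common median, the KSL difference was 0.012 for Pim2 and 0.0397 for Pim3, and cyclic loess gave 5e-04 for Pim3. With the mean of all probe sets, Pim3 was at -0.07 in HSC, 0.17 in KSL and 0.13 for HSC minus KSL in leukemic mice, and Pim1 was at -0.046 and 0.40 for HSC minus KSL in normal and leukemic mice. A term for the male pattern gave -0.076 for Pim1 and 0.11 for Pim3 in KSL. Without those arrays, Pim1 was at 0.44 in HSC and -0.040 in KSL, Pim3 at 0.078 in KSL, and the Bcl3 difference of differences at 0.42. The cause of these changes was not tested.

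Leaving out each array in turn gave ranges in HSC of 0.44 to 0.82 for Pim1, 0.71 to 1.12 for Pim2 and 1.16 to 1.89 for Bcl3. In KSL they were -0.040 to 0.20 for Pim1, -0.19 to 0.0905 for Pim2 and -0.41 to 0.36 for Pim3. For HSC minus KSL they were -0.11 to 0.28 for Pim1 in normal mice, and in leukemic mice 1.497 to 1.91 for Pim2, 0.13 to 0.89 for Pim3 and 1.06 to 1.79 for Bcl3. For the difference of differences they were 0.36 to 0.74 for Pim1, 0.76 to 1.17 for Pim2, -0.78 to -0.014 for Pim3 and 0.47 to 1.20 for Bcl3.

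A replicate block left the differences as they were, with 1.53 ± 0.29 for Bcl3 in HSC. It lowered the calls over all genes from 18 to 0 in HSC, from 8 to 0 in KSL, from 328 to 19 and from 1067 to 401 for HSC minus KSL in normal and leukemic mice, and from 1 to 0 for the difference of differences. At an unadjusted p under 0.05 limma with the block had 2433, 1436, 2871, 4014 and 1662 genes, against 2505, 1446, 2951, 4186 and 1653 without it. Of the list genes called for HSC minus KSL in leukemic mice, the block ended the calls of Jak3, Socs3, Lifr, Nfkbid and Cops5 but not that of Ccnd1. The labels do not say whether matching replicate numbers pair the arrays. Over all 19 alternatives the calls ranged from 0 to 257 in HSC, 0 to 125 in KSL, 0 to 546 and 0 to 1316 for HSC minus KSL in normal and leukemic mice, and 0 to 68 for the difference of differences, with at least 1390, 806, 2053, 2575 and 948 genes at an unadjusted p under 0.05. In HSC 11 calls were higher and 7 lower, against 16 and 4 with a common median and 0 and 2 with array weights, so their balance depended on the setting.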
